A study of Mus musculus with 34 samples.

Results

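The major urinary proteins (MUPs) and the odorant-binding lipocalin Obp2a were followed across liver tumors and livers without a tumor in C3H/HeNCrl mice, described in the study's methods as male. Of the 9 genes Mup1, Mup2, Mup3, Mup4, Mup5, Mup6, Mup20, Mup21 and Obp2a, 7 had a probe under their own symbol in the platform annotation, or 10 of the 45281 probes on the BeadChip, Illumina's bead-based microarray. Mup2 had 3 probes, Mup5 had 2, and Mup3, Mup6, Mup20, Mup21 and Obp2a had 1 each, whereas no probe carried the symbol Mup1 or Mup4. These genes were selected on their measured levels, which differed between hepatocellular carcinoma (HCC) and non-HCC liver on these same arrays, so that difference is given below as a description and was not tested.

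MUPs are small secreted lipocalins, barrel-shaped proteins that carry hydrophobic ligands. Hepatocytes of the adult male mouse make them in large amounts under pulsed growth hormone, acting through STAT5, together with testosterone, and the kidney passes them into urine, where they bind and release pheromones. Mup20, also named darcin, is itself a male pheromone that attracts female mice, and Obp2a, also named Lcn13, is a secreted lipocalin of the mouse liver that has been tied to glucose metabolism.

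The 34 arrays comprised 6 sham-irradiated non-HCC livers, 4 non-HCC livers after low-LET radiation (γ-rays, 3 to 7 Gy), 10 non-HCC livers after high-LET radiation (1 Gy), 4 spontaneous HCC from mice that received no radiation, 3 low-LET HCC (2 Gy in 2 mice and 3 Gy in 1) and 7 high-LET HCC (0.1 Gy in 1 mouse, 0.2 Gy in 3, 0.4 Gy in 1 and 1 Gy in 2). LET, linear energy transfer, is the energy a particle deposits along its track. The high-LET beams in the methods were accelerated iron and silicon ions. For the high-LET non-HCC livers the study names iron ions only, whereas its high-LET HCC followed iron or silicon ions. According to the methods, every mouse received a single whole-body exposure or a sham exposure as a young adult, non-HCC livers were age-matched, and tissue was collected when an animal became moribund, showed signs of a tumor or reached the end of the study. Doses are those of the labels, and the methods give a lower range for γ-rays than the labels give for the low-LET non-HCC livers. By the labels, 1 low-LET HCC and 1 low-LET non-HCC liver shared a dose, of 3 Gy, and 2 of the 7 high-LET HCC had the dose of the high-LET non-HCC livers.

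Nothing in the labels ties 2 arrays to 1 mouse, and the highest correlation between any 2 arrays over all probes was 0.996. Array medians lay between 93.1 and 127 intensity units, and 21497 to 26969 probes per array exceeded a background limit of 93.2 to 121 units, set from the dim side of each array's signals and equal to 6.00 to 6.10 after normalization on the log2 scale. Each group was spread over 3 to 6 of the 8 BeadChips. The male-linked genes Eif2s3y and Uty lay above the limit on 34 of 34 arrays and Kdm5d on 33, Eif2s3y at 7.13 to 8.75. The female-linked Xist read 5.95 to 6.30, around the limit, and exceeded it on 21 arrays. Among hepatocyte markers, Ttr and Apoa1 had group means of 14.44 to 15.01, whereas the array's probe for Alb, the albumin gene, read only 6.30 to 7.70 in tumor and non-tumor tissue alike.

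In the mouse genome the Mup genes form 1 family cluster. RefSeq placed 22 genes named Mup on chromosome 4 between positions 59956804 and 62150841 of GRCm38.p6, of which 16 had no probe under their own symbol, while Obp2a lies apart on chromosome 2, at positions 25697577 to 25703326, among other lipocalin genes. Coding sequences of some MUPs are near-identical, so a probe named for 1 Mup gene may read several. How alike the coding sequences of the genes named here are was not examined. Probe sequences were not used here, and which paralogs each probe reads was not determined. Below, a probe is called by its annotated gene, and a level is that of the probe.

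The promoters of 6 of the 9 genes were in RefSeq's table, each as a window from 250 bases before a transcript start chosen in that table to 50 after it. For Mup2 and Obp2a this start lies inside the span of the gene, so other transcripts may begin elsewhere. Those of 4 Mup genes with a probe and of Obp2a are shown because they display how alike the Mup promoters are, and how different that of Obp2a is. Capitals mark TATATAA, which resembles the core-promoter element read by the TATA-binding protein, and also the motif ATCAAT, a core found in binding sites of Onecut factors such as HNF6, wherever either motif occurred on either strand. The window of Mup4 is not shown, and Mup1, Mup5 and Mup20 are named only.
Mup2, chr4:60139807-60140106, minus strand: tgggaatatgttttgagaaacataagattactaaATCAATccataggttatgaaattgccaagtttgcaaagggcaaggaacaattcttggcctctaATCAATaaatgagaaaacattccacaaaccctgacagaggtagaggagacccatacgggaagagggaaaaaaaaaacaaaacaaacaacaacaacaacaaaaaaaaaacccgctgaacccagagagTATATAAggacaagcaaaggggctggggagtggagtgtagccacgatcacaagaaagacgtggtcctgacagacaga
Mup6, chr4:60003231-60003530, plus strand: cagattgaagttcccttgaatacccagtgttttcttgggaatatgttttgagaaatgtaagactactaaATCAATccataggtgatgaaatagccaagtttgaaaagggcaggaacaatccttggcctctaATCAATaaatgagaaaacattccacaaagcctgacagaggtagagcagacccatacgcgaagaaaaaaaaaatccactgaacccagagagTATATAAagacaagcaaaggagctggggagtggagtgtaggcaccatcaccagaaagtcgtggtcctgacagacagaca
Mup3, chr4:62087268-62087567, minus strand: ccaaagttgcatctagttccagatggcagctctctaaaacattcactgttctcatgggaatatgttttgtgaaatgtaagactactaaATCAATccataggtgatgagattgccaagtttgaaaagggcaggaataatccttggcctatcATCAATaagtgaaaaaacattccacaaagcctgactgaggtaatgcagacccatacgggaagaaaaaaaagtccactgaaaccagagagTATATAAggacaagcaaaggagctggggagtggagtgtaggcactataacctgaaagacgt
Mup21, chr4:62150792-62151091, minus strand: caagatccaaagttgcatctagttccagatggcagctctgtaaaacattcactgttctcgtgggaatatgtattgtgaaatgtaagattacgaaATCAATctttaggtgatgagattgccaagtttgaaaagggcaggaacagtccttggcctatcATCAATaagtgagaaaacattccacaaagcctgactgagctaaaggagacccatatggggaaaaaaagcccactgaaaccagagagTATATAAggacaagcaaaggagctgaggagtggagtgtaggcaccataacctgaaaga
Obp2a, chr2:25699824-25700123, plus strand: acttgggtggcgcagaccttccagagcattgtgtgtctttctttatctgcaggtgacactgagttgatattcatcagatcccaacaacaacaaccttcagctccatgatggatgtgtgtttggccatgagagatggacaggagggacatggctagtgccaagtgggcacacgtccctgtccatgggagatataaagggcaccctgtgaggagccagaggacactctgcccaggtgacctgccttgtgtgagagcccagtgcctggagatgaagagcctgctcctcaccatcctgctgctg

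Each of these Mup windows held 1 TATATAA and 2 copies of ATCAAT on the plus strand of the gene. The Obp2a window held neither exact string, but it contains the similar stretch gatataaag, so it may not lack an element of the TATATAA kind. Over the 14 promoter windows of Mup genes in RefSeq, 13 had TATATAA and 14 had at least 2 copies of ATCAAT, against 3.24% and 0.694% of all 32851 windows. ATCAAT occurred at least once in 7.54% of windows. The STAT form TTCNNNGAA, present in 8.30% of windows, was in 0 of the 14. The motifs were picked after the sequences had been read, they do not overlap, and a match or its absence concerns only the letters of a window. Percent identity between pairs of Mup windows ranged from 74.4% for Mup2 and Mup21 to 92.9% for Mup3 and Mup21. Between a Mup window and that of Obp2a it ranged from 48.4% for Mup3 to 50.5% for Mup6.

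In non-HCC livers 5 of the 9 Mup probes were among the brightest on the array. The brightest Mup2 probe (ILMN_2730208) had intensities of 27557 to 42391 over the 6 sham livers with a median of 32678, of 30211 to 40227 over the 4 low-LET livers and of 27629 to 39368 over the 10 high-LET livers with a median of 32424. It ranked between 2 and 31 of all probes on the 20 non-HCC arrays. The 3 groups overlapped throughout. The middle Mup2 probe (ILMN_3065459) had intensities of 17192 to 28861 over the 20 livers, the Mup3 probe (ILMN_1213817) of 23873 to 36450, the Mup6 probe (ILMN_2953807) of 7761 to 17906 and the Mup21 probe (ILMN_2818498) of 11571 to 33144. All 4 lay in the top 264 probes of every non-HCC array.

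The other 4 Mup probes and Obp2a were dimmer, and most of them spread more from liver to liver. The third Mup2 probe (ILMN_3143404) ranged from 504 to 3415 over the 20 non-HCC livers, or 11.2-fold between the lowest and highest normalized level, compared with 1.32-fold for the brightest Mup2 probe. The 3 probes that share the name Mup2 thus stood at means of 15.02, 14.51 and 10.19 on the log2 scale in non-HCC livers. Mup20 (ILMN_2881950) ranged from 1172 to 4088, and the brighter Mup5 probe (ILMN_3158509) from 594 to 2129. The other Mup5 probe (ILMN_3079257) read only 129 to 210, above the limit on 20 of 20 non-HCC arrays but close to it. Obp2a (ILMN_2695360) ranged from 311 to 1267, or 6.74-fold. Quantile normalization assigns the brightest probes of each array the same few values, so the narrow spread of the top probes is partly set by the scale.

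**Figure D1:**
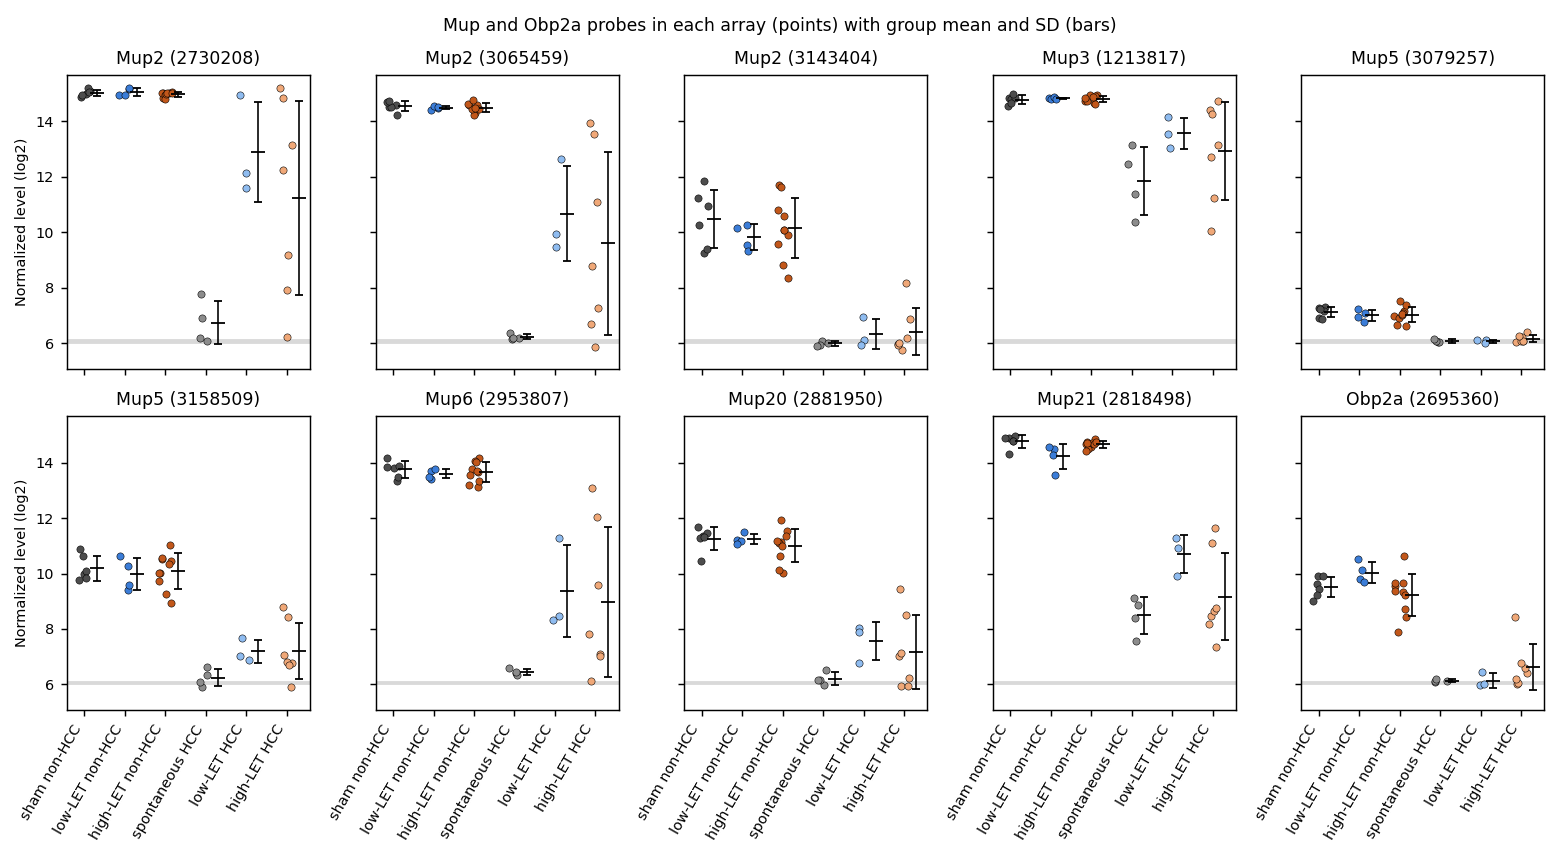
Normalized log2 level (y axis) of the 10 probes, 1 panel each, in the 6 groups (x axis), where points are arrays, bars to their right give the mean and SD, and the grey band is the background limit of 6.00 to 6.10. The 3 non-HCC groups overlap in every panel, and the HCC points fall below them except for some tumors of the brightest Mup2 probe, Mup3 and Obp2a.

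Radiation without a tumor was examined first, against the sham livers. The brightest Mup2 probe averaged 15.03 ± 0.12 (SD, n = 6) on the log2 scale in sham livers, 14.98 ± 0.09 (n = 10) after high-LET and 15.07 ± 0.14 (n = 4) after low-LET radiation. Obp2a averaged 9.52 ± 0.36 (n = 6), 9.24 ± 0.76 (n = 10) and 10.03 ± 0.37 (n = 4) in the same order, and Mup21 14.77 ± 0.24, 14.66 ± 0.13 and 14.22 ± 0.47.

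High-LET non-HCC against sham livers gave 0 calls among the 10 probes in limma's moderated test, where a probe was called if its p, adjusted over all probes by the Benjamini-Hochberg method, was under 0.1 and the fold over 1.3, and 0 members had an unadjusted p under 0.05. Over all 45219 probes tested, 0 were called (0%) and 1505 had an unadjusted p under 0.05. The ordinary linear model also called 0 of the 10. For the Obp2a probe the difference was -0.28 with a 95% interval of -0.90 to 0.35, and for Mup20 -0.26 with an interval of -1.03 to 0.51. The interval for the brightest Mup2 probe, -1.79 to 1.70, was wide because the fit shares 1 estimate of the spread with the tumors.

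Low-LET non-HCC against sham livers, which uses the same sham arrays, also gave 0 calls among the 10 probes in limma and in the ordinary linear model, 0 calls over all probes (0%), and 0 members of 1495 probes at an unadjusted p under 0.05. Mup21 differed by -0.54, with a 95% interval of -1.57 to 0.49, and Obp2a by 0.52, with an interval of -0.265 to 1.296. Within the 3 BeadChips that held both groups, 20 of 30 values of probe and chip were below 0, but these repeat 3 chips over probes that share arrays. When only the 2 groups compared entered the fit, 0 probes were called in either comparison. These intervals do not show that the levels were alike.

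In HCC the levels of all 10 probes were lower. Averaged over the 3 HCC groups against the 3 non-HCC groups, the 10 probes were lower by 0.95 to 5.68 on the log2 scale, with a median difference of -4.05. On this scale the middle Mup2 probe differed by -5.68, or 51.4-fold, Mup6 at -5.42, Mup21 at -5.10 and the brightest Mup2 probe at -4.74. Mup20 differed by -4.19, the third Mup2 probe by -3.91, Obp2a by -3.30, the Mup5 probes by -3.21 and -0.95, and Mup3 by -2.03. For the dim Mup5 probe the non-HCC level was itself close to background. Sizes for the dim probes depended on the background correction: with the authors' normalized values the differences were -6.70 for the third Mup2 probe, -5.85 for Mup20, -5.80 for Obp2a and -4.71 and -3.05 for Mup5. Without background correction they were -2.88, -3.39, -2.35, -2.47 and -0.49, so the order of the probes is not fixed.

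For 7 of the 10 probes every one of the 14 HCC lay below the lowest of the 20 non-HCC livers. The exceptions were the brightest Mup2 probe, for which 11 of 14 HCC were below, and Mup3 and Obp2a, with 13 of 14 each. On the 6 BeadChips that held both tissues, the HCC mean was lower than the non-HCC mean in 60 of 60 values of probe and chip, by 0.12 to 8.84. The 10 probes share arrays, so these values are not independent. The genes were selected on this difference, and the share of all probes that separate the tissues in this way was not determined. In bulk tissue, fewer hepatocytes and less RNA per hepatocyte cannot be told apart.

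Spontaneous HCC had the lowest levels of most probes. The brightest Mup2 probe read 149, 291, 109 and 99 intensity units in the 4 spontaneous tumors, against 27557 to 42391 in sham livers, a difference of -8.30 on the log2 scale. The middle Mup2 probe read 107, 132, 115 and 98, Mup6 read 120, 146, 123 and 110, and Mup20 read 100, 119, 114 and 113. All of these tumors sat near the background limit for these 3 probes. Mup21 kept more signal, at 210, 675, 414 and 371. The third Mup2 probe read 93 to 107, the brighter Mup5 probe 97 to 129 and the dimmer one 98 to 112.

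Mup3 behaved differently from the other bright MUPs. It read 2248, 10007, 1386 and 3885 in the spontaneous tumors, and its lowest HCC, a high-LET tumor at 675, was still well above background. Its group mean was 11.84 ± 1.23 (n = 4) in spontaneous HCC, 13.57 ± 0.56 (n = 3) in low-LET HCC and 12.93 ± 1.76 (n = 7) in high-LET HCC, against 14.79 to 14.83 in the non-HCC groups. Sham livers read 25219 to 31055 for Mup3 and did not overlap with spontaneous HCC.

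Obp2a was close to background in most tumors. It read 105, 116, 112 and 99 in spontaneous HCC, 123, 114 and 104 in low-LET HCC, and 116, 106, 111, 111, 116, 155 and 627 in high-LET HCC, in replicate order. Only the last of these, 1 of the 2 tumors from mice given 1 Gy, reached the range of the non-HCC livers. Its mean was 6.13 ± 0.04 (n = 4) in spontaneous, 6.14 ± 0.26 (n = 3) in low-LET and 6.63 ± 0.83 (n = 7) in high-LET HCC.

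Irradiated HCC differed strongly from each other. In the 7 high-LET HCC, in replicate order, the brightest Mup2 probe read 11800, 392, 331, 98, 5323, 40157 and 34501 units. In the 3 low-LET HCC it read 33429, 5159 and 2979. The 2 high-LET HCC of 1 Gy and 1 low-LET HCC of 2 Gy were as bright as non-HCC liver, and the high-LET HCC of 0.4 Gy was as dim as the spontaneous tumors. The middle Mup2 probe read 2788, 147, 168, 87, 508, 12001 and 23226 in the high-LET HCC, and 5551, 871 and 1039 in the low-LET HCC. Mup6 read 951, 137, 205, 95, 278, 4293 and 13314, and then 2269, 477 and 386.

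The same tumors stood out with several other probes. The third Mup2 probe read 163 and 539 in the 2 high-LET HCC of 1 Gy and 89 to 127 in the other 5, and the brighter Mup5 probe 403 and 805 against 88 to 191. Mup20 reached 429 and 1226 in the 2 high-LET HCC of 1 Gy and lay between 89 and 216 in the other 5. Mup21 read 3290 and 3670 in these 2 and 153 to 503 in the other 5, whereas the 3 low-LET HCC read 1752, 1185 and 2389. Relative to the mean of the non-HCC livers, the median of the 10 probes was -1.66 and -0.86 in the 2 tumors of 1 Gy, -2.42 in the low-LET HCC with the brightest Mup2 signal, and between -3.38 and -4.98 in the remaining 11. Mup3 did not follow this pattern: it read 27043 and 28377 in the tumors of 1 Gy but also 22541 in high-LET HCC 5 (0.2 Gy), and 675 to 8653 in the other 4. The dim Mup5 probe read 119 and 162 in the tumors of 1 Gy and 96 to 118 in the other 5. The 1 Gy tumors are 2 mice, and dose, ion and tumor cannot be told apart.

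**Figure D2:**
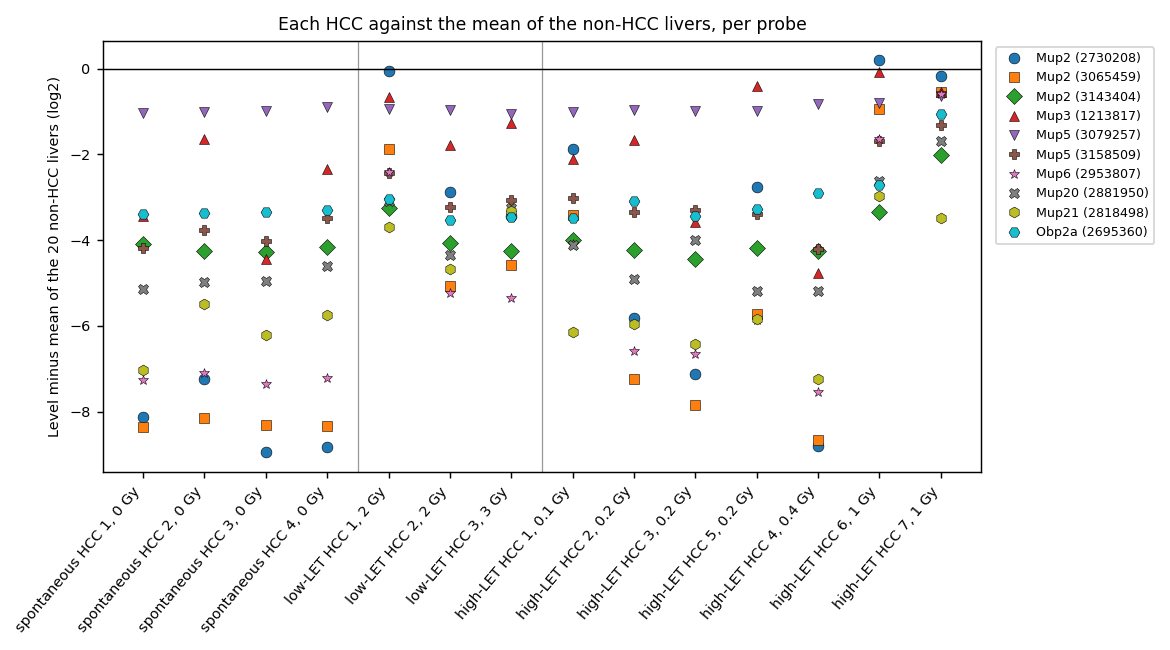
Log2 level of each of the 10 probes minus the mean of the 20 non-HCC livers (y axis) in each of the 14 HCC (x axis, with group, replicate and dose), where 0 is the non-HCC mean. Spontaneous HCC lie at -8.94 to -7.24 for the brightest Mup2 probe, -8.35 to -8.15 for the middle one and -7.35 to -7.11 for Mup6, and the 2 high-LET HCC of 1 Gy lie nearest to 0 with medians of -1.66 and -0.86.

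The spread over the high-LET HCC was large for the bright probes. The SD of the brightest Mup2 probe was 3.51 in high-LET HCC (n = 7) and 1.80 in low-LET HCC (n = 3), compared with 0.78 in spontaneous HCC (n = 4) and 0.09 to 0.14 in the non-HCC groups. From the lowest to the highest of the 14 HCC this probe spanned 563-fold, the middle Mup2 probe 276-fold and Mup6 125-fold, against 1.32-, 1.43- and 2.09-fold over non-HCC livers. The spans of Mup3, Mup20, Mup21 and the brighter Mup5 probe, 25.8-, 11.3-, 19.4- and 7.40-fold, also exceeded those in non-HCC livers. The reverse held for 3 probes close to background in most tumors: the third Mup2 probe spanned 5.39-fold in HCC and 11.2-fold in non-HCC livers, Obp2a 5.47- and 6.74-fold and the dim Mup5 probe 1.33- and 1.86-fold. For the 4 probes above the background limit in all 14 HCC (the brightest Mup2 probe, Mup3, Mup6 and Mup21), means were highest in low-LET HCC and lowest in spontaneous HCC. Low-LET and high-LET HCC overlapped for every probe.

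The comparison of kinds of HCC was not used to select the genes. High-LET HCC against spontaneous HCC called 2 of the 10 probes as higher in limma, against 2.48% of all 45219 probes called in either direction, and all 10 differences were positive with a median of 0.97. The brightest Mup2 probe was higher by 4.52 on the log2 scale (SE 1.04, 95% interval 2.40 to 6.63, adjusted p = 0.0226), and 6 of the 7 high-LET HCC exceeded the highest spontaneous HCC. The lowest of these 6 stood at 7.90, close to that spontaneous tumor at 7.77. The share of all probes with such an order was not determined. The middle Mup2 probe was higher by 3.37 (SE 0.97, interval 1.40 to 5.35, adjusted p = 0.0695). Mup6 differed by 2.53 with an interval of 0.86 to 4.19 (limma adjusted p = 0.108) and missed the threshold.

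These 2 calls depended on how the spread was estimated and on single tumors. The 6-group fit averages the tumors' spread with that of the non-HCC livers. With only the HCC arrays in the fit, an alternative chosen after seeing the data, 0 probes were called, and the limma adjusted p of the brightest Mup2 probe was 0.514. With only the 2 groups it was 0.433, and with the BeadChip as a block 0.136, again with 0 calls. Leaving out single arrays gave 0 to 5 calls: 0 without spontaneous HCC 3, and 5 without the high-LET HCC of 0.4 Gy. Without both tumors of 1 Gy, also an alternative chosen after seeing the data, the difference of the brightest Mup2 probe was 3.01 and 1 probe was called. On the 2 BeadChips that held both kinds of HCC, 1 tumor of each, this difference was 5.35 and 0.03, and that of the middle Mup2 probe was 2.62 and -0.33.

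Low-LET HCC against the same spontaneous HCC called 0 of the 10 probes in limma and in the ordinary linear model, against 0.00663% of all probes. An unadjusted limma p under 0.05 was found for 6 members, which share arrays, and for 5.11% of all probes. The difference of the brightest Mup2 probe was 6.15 with a 95% interval of 3.58 to 8.73 (limma adjusted p = 0.120), and all 3 low-LET HCC exceeded all 4 spontaneous HCC. With so few arrays such an order can arise by chance, and the share of all probes that show it was not determined. The middle Mup2 probe differed by 4.45 (interval 2.04 to 6.86), Mup6 by 2.91 (0.89 to 4.94), Mup21 by 2.22 (1.00 to 3.44) and Mup3 by 1.74 (0.34 to 3.13), and for Obp2a the difference was 0.00 (-0.92 to 0.93). This comparison called few genes of any kind, no BeadChip held both groups, and chip and radiation were not separated within a chip. Without low-LET HCC 3, and separately without spontaneous HCC 2, the brightest Mup2 probe was called, at limma adjusted p of 0.0539 and 0.0853. With only the 14 HCC arrays, chosen after seeing the data, 0 of the 10 probes were called. The limma adjusted p of the brightest Mup2 probe was then 0.99994. The 6-group fit behind the intervals above averages the tumors' spread with that of the non-HCC livers.

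High-LET against low-LET HCC called 0 of the 10 probes in limma and in the ordinary linear model, against 0.628% of all probes. An unadjusted limma p under 0.05 was found for 1 of the 10, about the share of all probes, 10.6%. That probe was Mup21, which was lower in high-LET HCC by 1.54 on average (difference -1.54, 95% interval -2.64 to -0.43, limma adjusted p = 0.241). The high-LET HCC read 450, 291, 391, 153, 503, 3290 and 3670 for Mup21, so the 2 tumors of 1 Gy lay with or above the 3 low-LET HCC and the other 5 lay below them. Without the first of these 2 it was called (limma adjusted p = 0.0643), and without both, an alternative chosen after seeing the data, at 0.000183. These 2 had the highest Mup21 signal of the high-LET HCC. Leaving them out therefore widened the difference by construction, and these calls are no support for it. With only the 14 HCC arrays in the fit, Mup21 was not called (limma adjusted p = 0.919). Within the 3 BeadChips shared by these groups, 23 of 30 values of probe and chip were higher in high-LET HCC, whereas 4 of the 10 probes were higher over all arrays. These values repeat 3 chips over 10 probes that share arrays, with 1 low-LET HCC on each chip. The 2 tumors of 1 Gy were on these chips, and high-LET HCC 2, 4 and 5 were not, so the 2 counts rest on different tumors. For the brightest Mup2 probe the difference was -1.64 with an interval of -3.97 to 0.69.

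**Figure D3:**
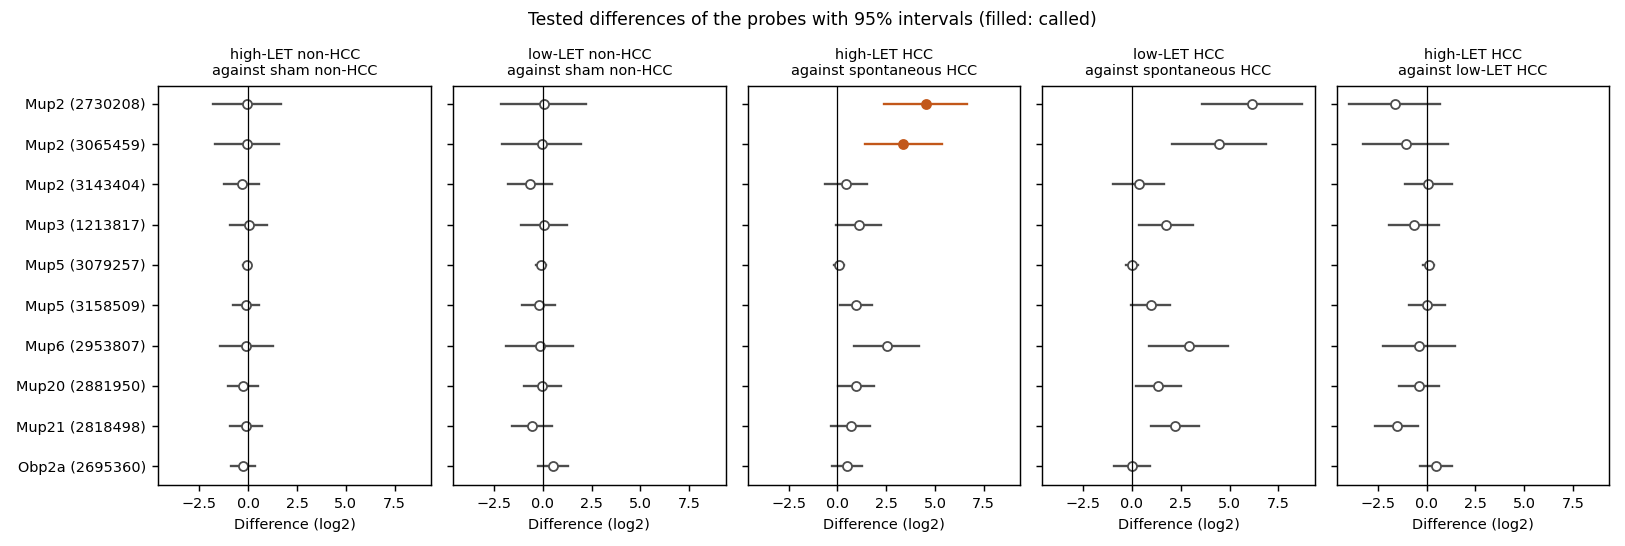
Differences of the 10 probes on the log2 scale (x axis) in the 5 tested comparisons, 1 panel each, with 95% intervals from the 6-group limma fit. Filled points are the 2 called differences, both Mup2 probes in high-LET against spontaneous HCC.

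Many of the MUP probes varied together from tumor to tumor, to different degrees. After group means had been removed, the middle Mup2 probe and Mup6 correlated at r = 0.98 over the 14 HCC and 0.79 over the 20 non-HCC livers, and the brighter Mup5 probe and Mup20 at 0.93 and 0.81. The brightest and middle Mup2 probes correlated at 0.95 in HCC but 0.33 in non-HCC livers. The lowest values in HCC were 0.25 for Mup3 with the dim Mup5 probe and 0.35 for Mup3 with Obp2a, and the lowest in non-HCC livers was -0.42 for the brightest Mup2 probe with Mup21. For Obp2a the correlations in HCC ran from 0.35 to 0.93, the latter with the third Mup2 probe (0.27 in non-HCC livers). Both of these probes were near background in most HCC, with high-LET HCC 7 far above the rest at 8.41 and 8.18. These correlations, from 45 pairs, are given as descriptions, since the points share arrays, normalization and possibly target transcripts.

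By the same measure over both tissues, 5 of 13455 genes were nearest to the mean of the Mup probes: Ugt2b1, a glucuronosyltransferase of the liver (r = 0.81 in non-HCC livers and 0.92 in HCC), Nat8f1 (0.77 and 0.89), the sulfotransferase Sult2a8 (0.77 and 0.92), the sialyltransferase St6galnac2 (0.76 and 0.87) and the zinc-finger factor Tshz1 (0.75 and 0.81). Those nearest to Obp2a were Hsd17b4, an enzyme of peroxisomal β-oxidation (0.61 and 0.63), Pus10 (0.58 and 0.65), Clcc1 (0.61 and 0.58), Pdlim5 (0.57 and 0.57) and Igsf11 (0.57 and 0.62). Obp2a was near background in most HCC, with high-LET HCC 7 at 8.41 and the next high-LET HCC at 6.76. Its r in HCC may therefore rest largely on that tumor. Both sets were picked as the highest of 13455 genes and are descriptions only.

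Genes around the MUPs in the growth hormone pathway were then compared between HCC and non-HCC livers. Over all 19047 genes 6.98% were called lower and 7.18% higher. Of 12 genes of growth hormone and STAT5 signaling, 3 fell and 4 rose, with a median difference of 0.08 against -0.01 over all genes. The growth hormone receptor Ghr fell by 1.45 on the log2 scale (SE 0.19, limma adjusted p = 5.32e-07), its target Igf1 by 0.94 and Igfals, which binds IGF1 in blood, by 2.32. The feedback inhibitors Cish, Socs3 and Socs2 rose by 1.34, 0.79 and 0.86, and Igfbp3 by 0.59. With the BeadChip as a block 1 of these 4 was called higher, and without low-LET HCC 3 there were 2. The probe for Stat5b lay below the background limit on all 34 arrays.

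Many other genes with sex-biased expression in mouse liver differed as well. Of 12 further male-biased genes 9 fell and 0 rose, with a median of -2.33. Hsd3b5, a steroid dehydrogenase of male liver, fell by 5.82 (SE 0.43, limma adjusted p = 3.02e-11), Elovl3, a fatty acid elongase, fell by 3.88. Cyp4a12b fell by 2.38, and Serpina4-ps1 fell by 2.99. Of 13 female-biased genes 8 rose and 1 fell, with a median of 1.74: Cyp2b9 rose by 5.30 (SE 0.35, limma adjusted p = 4.53e-12), Cyp2a4 by 4.77, Cyp2b13 by 3.97 and Abcd2 by 1.74, and Cyp2b10 fell by 1.40. Among 5 regulators of sex-biased liver expression, Bcl6, a repressor more abundant in male liver, fell by 1.84, and the female-biased factors Cux2 and Tox rose by 1.03 and 1.499. Cux2 averaged 6.09 in low-LET HCC, close to the 5.94 to 6.01 of the non-HCC groups, against 7.57 in spontaneous and 7.40 in high-LET HCC. For the Mup genes themselves the selection fixed the direction. The lists of genes were also chosen with earlier results of these data known, so their counts are not independent evidence.

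In high-LET against spontaneous HCC, 6 of the 155 distinct genes of the lists were called, or 3.87%, close to the 3.49% called of all 19047 genes. Igf1 was higher by 0.62, Klb by 0.84 and the endothelial Stab2 by 0.85, and differences of -2.02 for Cyp2b13, -2.36 for Sult2a2 and -1.45 for Sox9 were called lower, with limma adjusted p from 0.0616 to 0.0880.

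Single tumors can be read on both sets of genes. Hsd3b5 stood at 11.43 and 10.63 on the log2 scale in the high-LET HCC of 1 Gy, at 9.90 in the first low-LET HCC and at 8.95 in the high-LET HCC of 0.1 Gy, and at 5.87 to 6.83 in the other 10, against 12.77 to 13.40 in non-HCC livers. These 4 tumors are also the 4 with the highest signal of the brightest Mup2 probe. Cyp2b9 stood at 9.95 and 6.68 in the 2 HCC of 1 Gy and at 10.29 to 12.51 in the other 12 HCC, against 5.82 to 7.54 in non-HCC livers. Ghr in these 2 tumors, 11.71 and 11.65, was near the lowest non-HCC liver at 11.70, but the highest Ghr level of the HCC, 11.999, was in high-LET HCC 5, which had Hsd3b5 at 6.28 and the highest Cyp2b9 level, 12.51. These single-array values were picked after they had been seen.

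Of 13 hepatocyte transcription factors measured, 3 fell and 1 rose: Onecut2 fell by 2.01, Zbtb20 by 0.59 and Cebpa by 0.41, and Foxa3 rose by 0.83. Among 8 hormone receptors 1 fell, the FGF21 co-receptor Klb, with a difference of -0.47 that was not called with the BeadChip as a block, and the androgen receptor was not analysed here. Of 21 abundant secreted plasma proteins 1 fell (Serpinc1, by 0.42) and 1 rose (Serpina1a, by 0.51), with a median of -0.02. The hepatocyte markers G6pc, Hpd, Cyp2e1 and Cps1 were the 4 of 10 that fell, with differences of -2.35, -1.32, -1.99 and -0.66.

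Of 19 other lipocalins measured, 2 rose and 2 fell: Lcn2, an acute-phase lipocalin, rose by 4.71 (SE 0.45, limma adjusted p = 3.80e-09) and Apom, which carries sphingosine-1-phosphate, by 1.27, whereas C8g fell by 0.54 and Orm1 by 1.00. Next to the Mup cluster, 2 of 10 neighboring genes fell, E130308A19Rik by 0.58 and the copper transporter Slc31a1 by 0.44, and the median was -0.01. Of 10 neighbors of Obp2a, 7 of them lipocalins, 0 were called in limma and 0 in the ordinary linear model. An unadjusted limma p under 0.05 was found for 3 of them, close to the 27.6% of all probes. With the authors' normalized values 2 were called lower, and 1 when the filter was stricter.

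**Figure D4:**
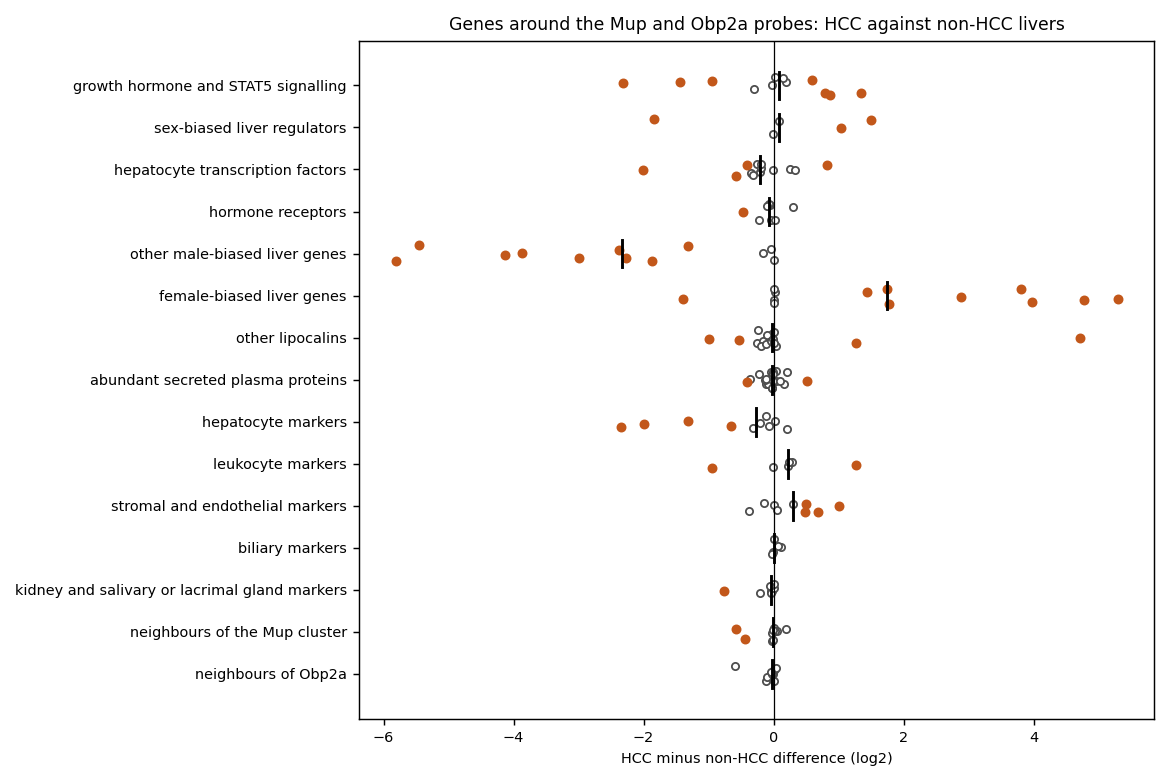
Log2 difference of HCC minus non-HCC livers (x axis) for the genes of each list (y axis), with called genes filled, other genes open and the median of the list as a bar. The medians of male-biased and female-biased genes lie at -2.33 and 1.74, and those of the neighbors of the Mup cluster and of Obp2a lie near 0.

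Markers of cell types were summed on each array. The summed normalized signal of the 10 hepatocyte markers was 114844 to 125918 in sham, 116371 to 125623 in low-LET and 112556 to 126269 in high-LET non-HCC livers. It was 78379 to 97414 in spontaneous, 77162 to 98028 in low-LET and 64592 to 128963 in high-LET HCC. For the 9 stromal and endothelial markers, of which 4 rose and 0 fell, the sums were 1188 to 1968, 1198 to 1704 and 1323 to 1730 in the non-HCC groups and 1291 to 1719, 1642 to 2587 and 1351 to 4425 in the HCC groups, in the same order. For the 6 leukocyte markers, of which Lyz2 rose and Clec4f fell, they were 1392 to 2015, 1499 to 3135 and 1188 to 2282, and 1203 to 3235, 791 to 2354 and 1372 to 6780. Of 5 biliary markers 0 were called in limma and 0 in the ordinary linear model. None had an unadjusted limma p under 0.05, against 27.6% of all probes, and Epcam lay below the limit on all arrays. Their part in the MUP levels was not tested. Of 8 markers of kidney and of salivary or lacrimal glands, only Amy1 was called, with a difference of -0.77.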

How the data were processed

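RNA of 34 liver samples was hybridized to Illumina mouse BeadChips. The deposited non-normalized intensities came from GenomicStudio, which the authors ran, and are linear values without background subtraction. The deposited log2 values were background-subtracted with MBCB and quantile-normalized by the authors, and had a rank correlation of 0.999968 or more with the intensities. Here the intensities were corrected with limma's normexp (offset 50), quantile-normalized, then log2-transformed. The offset makes fold changes of dim probes too small. Probes above the median of the dimmest 25% on at least 3 arrays were kept, 45219 of 45281, all 10 members among them. The background limit per array was the mode plus 1.645 SD of the signals below it.

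A linear model with 6 group means was fitted to all probes in limma 3.58.1 under R 4.3.3. Calls needed an adjusted p under 0.1 and a fold above 1.3, as in the study. The script was tested on simulated data. Samples were grouped by the labels for radiation and pathology, and replicate numbers are names only. Nothing says whether arrays of a group came from separate cages or litters, so p-values measure the spread between these arrays, whose number limits the precision. Alternatives were other background correction and scaling, the deposited log2 values, other filters, the BeadChip as a block, other samples in the fit, an ordinary linear model and arrays left out singly.

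Of all probes, 34885 had 1 gene symbol, 18 several and 10378 none, and 34807 matched RefSeq (GRCm38.p6) by gene ID. All member probes are named. A list gene is represented by its brightest probe, up to 4 genes per list with the smallest adjusted p in HCC against non-HCC are named plus those that small counts rest on, and the 5 genes most like the Mup mean and like Obp2a by the lower of 2 correlations. Members and lists were chosen with earlier results of these data known. The interaction terms, the fit of HCC arrays only, the fit without the 1 Gy HCC, the promoter motifs and the genes shown per tumor were chosen after seeing the data. Promoter windows were aligned with Biopython 1.88 and figures drawn with matplotlib 3.10.9.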

Additional observations from a re-analysis of the deposited data

Results flagged for a closer look

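Of 50 checks of a probe in a group of 4 to 10 arrays, 4 had a highest or lowest array set far apart from the others, and chance gives about 1 in 20. For Obp2a, high-LET HCC 7 (1 Gy) stood at 8.41 on the log2 scale, with the next of the 7 tumors at 6.76. For the middle Mup2 probe, ILMN_3065459, spontaneous HCC 2 stood at 6.36 and the next at 6.19, a small gap near background. For Mup20, sham liver 5 was the lowest at 10.47, with the next at 11.27. For Mup21, sham liver 3 was the lowest at 14.30, with the next at 14.77. Whether radiation effects differed between HCC and non-HCC livers was also tested in limma as an interaction, chosen after seeing the data. It called 85 probes for high-LET against no radiation, 0 for low-LET against no radiation and 7 for high-LET against low-LET, and 0 of the 10 Mup and Obp2a probes in any of them.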

How the results depend on the processing

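The count of called Mup and Obp2a probes in high-LET against spontaneous HCC, 2 in the report, was 1 without background correction and after scaling to a common median, 4 with the authors' normalized values, and 0 with the BeadChip as a fixed block and with only the 2 groups compared. Alternatives added after seeing the data gave 1 call without both high-LET HCC of 1 Gy and 0 with only the 14 HCC arrays. Leaving out 1 array at a time gave 0 to 5 calls. The count was 0 without spontaneous HCC 3, 1 without spontaneous HCC 1, 2 or 4 or without high-LET HCC 6 or 7, and 5 without high-LET HCC 4. In low-LET against spontaneous HCC, 0 in the report, the stricter filter on 10 arrays gave 1 call, since fewer probes were tested, and leaving out 1 array gave 0 to 1. In high- against low-LET HCC it gave 0 to 1. Leaving out both high-LET HCC of 1 Gy, which had the highest Mup21 signal of their group, gave 1, Mup21. With only the 14 HCC arrays both of these comparisons kept 0 calls. The 2 comparisons of non-HCC livers kept 0 calls in all alternatives, and leaving out 1 array gave 0 to 0.

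The median difference of the probes in HCC, -4.05, was -5.67 with the authors' normalized values, -3.14 without background correction and between -4.16 and -3.97 when 1 array was left out. The counts of list genes, 23 lower and 18 higher among 116 probes, ranged from 22 to 25 and from 15 to 18 when 1 array was left out. Over all 42 alternatives they ranged from 19 to 29 and from 15 to 20. No value changed sign after a call. Scaling to a common median moved the share of higher calls from 33.1% to 1.82% in high- against low-LET HCC and from 33.3% to 100% among the few calls in low-LET against spontaneous HCC. Except where a value or the construction of the alternative shows it, the cause was not tested. No paired analysis was possible because replicate numbers were assigned in accession order and pair no mice. Near background, levels of Obp2a, Mup5 and Mup20 in tumors have no reliable order, and probes near the top of the scale are compressed.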
